A study of Rattus norvegicus with 6 samples.

Results

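The 10 genes Onecut1, Hes1, Sox9, Krt19, Krt8, Krt18, Tff2, Tff3, Spp1 and Cftr serve as markers of the pancreatic duct or as targets of Notch signalling, and the probe sets of the array that carry one of their symbols in the platform annotation were followed here. Of the 10 genes, 8 had a probe set: Onecut1, Hes1, Krt8, Krt18, Krt19, Tff2, Tff3 and Spp1. They are among 10412 genes named on the array. Onecut1 had 2 probe sets and the others 1 each, which gives 9 of 15866 probe sets in all. No probe set was named Sox9 or Cftr, and neither gene was analysed here. The cells were AR42J, a rat line derived from a tumour of the exocrine pancreas and used as a model of acinar cells. Cells thawed at passage 29 were plated for 24 h with 20% serum. They were then kept for 48 h with 5% serum, either without dexamethasone (control, n = 3) or with 100 nM of it (n = 3). All cultures come from 1 cell line. Dexamethasone is a synthetic glucocorticoid, which activates the glucocorticoid receptor.

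In the pancreas, duct cells line the channels that carry acinar enzymes to the gut and add bicarbonate and water to them. Their epithelium is recognised by the simple keratins, above all Krt19, and by transcription factors such as Onecut1 and Sox9 that also act in pancreatic progenitors. Notch receptors, when bound by a ligand on a neighbouring cell, are cut and release a fragment that joins RBPJ on DNA and switches on repressor genes, of which Hes1 is the best known. Notch activity and duct genes are both known to rise when acinar cells lose their differentiated state, and Hes1 also answers to other signals.

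Of the 9 probe sets, 8 were bright enough to test, with a mean over the 6 arrays, taken on the log2 scale, of at least a signal of 147.6 (the filter), and 7 of these passed an adjusted p of 0.05 in limma, a linear model fitted over all tested probe sets with replicate pairs as a block. With dexamethasone 6 fell (both of Onecut1, Krt8, Krt18, Krt19 and Tff2), 1 rose (Hes1) and 1 did not pass (Tff3). Over the whole array, 37.1% of 9520 tested probe sets passed, 21.2% lower and 15.9% higher. The groups did not overlap at 6 probe sets that were lower with dexamethasone and 1 that was higher, whereas 27.8% of all tested probe sets were lower and 22.0% higher without overlap. The median change of the 8 tested probe sets was -1.11 on the log2 scale, against -0.05 over all tested probe sets. The genes were picked with earlier results of these data known, so these counts describe the members and are not an independent test of them.

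Values are MAS5 signals on a linear scale, each array having been scaled to a trimmed mean of about 500, and are given as mean ± SD over the 3 arrays of a group. A change is the log2 signal with dexamethasone minus control, with its SE from limma. The p-values of that fit were adjusted by the Benjamini-Hochberg method over the 9520 probe sets. A signal counts as above background if it exceeds the highest of 27 control probe sets for bacterial genes on the same array, a level that ranged from 51.7 to 115.9. The arrays measure RNA relative to the array's total, so fewer cells expressing a gene and less of its RNA per cell cannot be told apart. Each replicate number marks a separate experiment from frozen cells, and the p-values cover the spread between 3 such pairs of cultures of 1 line. Of the acinar markers, 16 of 17 on the array were above background on all 6 arrays. Their summed signal was 92886 to 113375 in controls and 157480 to 176588 with dexamethasone. Of 14 tested acinar markers 10 rose, where 17.0% of all tested genes were higher. Of the markers of other cells, those above background on all 6 arrays and on none were 3 and 3 of 12 for islets, 5 and 3 of 12 for stellate cells and fibroblasts, 3 and 2 of 8 for endothelium and 2 and 2 of 11 for immune cells. Among defining markers, Ins1, Chga, Chgb, Col1a1, Col3a1, Acta2, Pecam1, Csf1r and Fcer1g were above background on all arrays. Gcg, Postn, Tagln, Kdr, Ptprc and Itgam were above it on none. The summed signal of the endothelial markers went from 675.8 to 781.7 in controls to 961.7 to 1164 with dexamethasone. Pecam1 and Esam, the 2 tested, passed as higher, beside 17.0% of all tested genes. The control signals of Pecam1, 133.9, 132.4 and 95.9, were all under the filter, so that it was tested through its treated arrays. Of 3 tested islet markers 1, Chgb, passed as higher, and the sums were 6560 to 6725 and 6669 to 10246 for islet markers, 1174 to 1486 and 1311 to 1506 for stellate and fibroblast markers, and 964.2 to 1059 and 1065 to 1327 for immune markers. The part of these markers in the results was not tested.

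**Figure D1:**
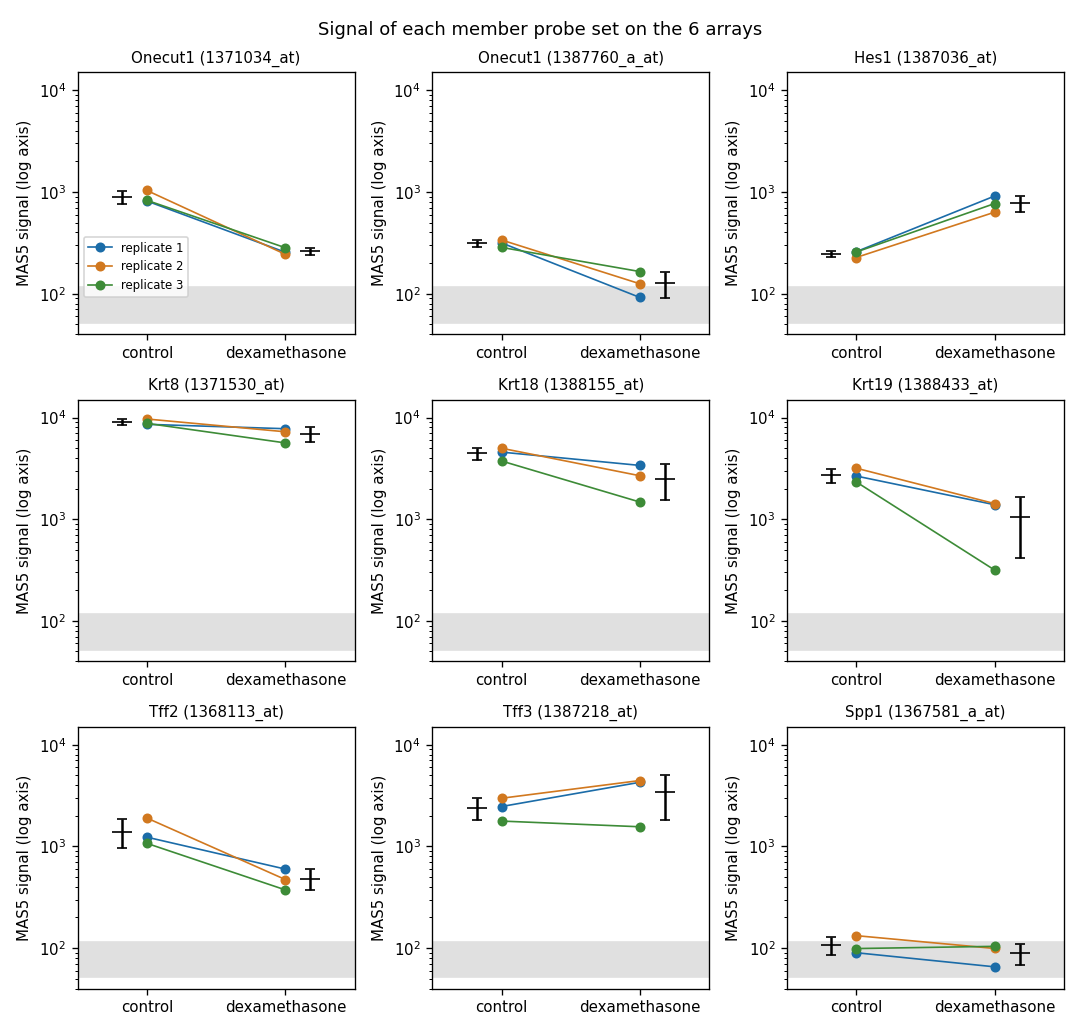
Signals of the 9 member probe sets on the 6 arrays, on a log axis, with lines joining arrays of the same replicate number and black bars giving mean ± SD (n = 3 per group); the grey band spans the background levels of the 6 arrays. Hes1 is higher on all treated arrays, Tff3 overlaps between groups, and Krt19 on dexamethasone array 3 lies at 316.2.

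Onecut1 encodes a homeodomain transcription factor of pancreatic progenitors and duct cells, also called HNF6. Its brighter probe set (1371034_at) gave signals of 814.3, 1034 and 827.7 in controls 1 to 3 and of 255.3, 243.8 and 282.9 with dexamethasone. The groups do not overlap, and the treated arrays lie close together. This is a fall from 892.1 ± 123.3 to 260.7 ± 20.1, or 3.41-fold (log2 change -1.77 ± 0.16, adjusted p = 6.45e-05). The other probe set (1387760_a_at) gave 315.7, 337.3 and 285.1 in controls and 91.7, 125.0 and 164.9 with dexamethasone, with treated array 1 below its background level of 100.2. It fell as well (-1.34 ± 0.24, adjusted p = 0.00258), though its treated signals average under the filter of 147.6 and it was tested through its controls; it was also called without the filter. By pair, the changes of the brighter probe set were -1.67, -2.08 and -1.55, and those of the dimmer one were -1.78, -1.43 and -0.79. The brighter probe set changed more than 96.1% of tested probe sets, the dimmer one more than 93.2%.

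Hes1, a basic helix-loop-helix repressor and the classical Notch target, was the member that rose (probe set 1387036_at). Its signals were 258.6, 226.8 and 256.7 in controls and 912.3, 632.8 and 769.3 with dexamethasone. Every treated array was above every control array, and controls differed little from each other. The rise was from 247.4 ± 17.8 to 771.5 ± 139.8, or 3.09-fold (1.63 ± 0.15, adjusted p = 7.68e-05), with pair changes of 1.82, 1.48 and 1.58. It exceeded the change of 95.5% of tested probe sets. Among 8070 other named probe sets, those with the signal pattern most like that of Hes1 over the 6 arrays were Hspa5 (Pearson r = 0.999), a chaperone of the endoplasmic reticulum, Fam20b (r = 0.998), a xylose kinase, and Ube4a (r = 0.998), a ubiquitin ligase. These r values describe 2 groups of 3 arrays and carry no test, since 416 of the named probe sets had an r above 0.95.

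Hes1 was the only called member that went up, and its promoter holds matches to the kind of site through which Notch acts. That promoter is printed here beside that of Hes6, a related gene that fell (below). Both genes were picked by their direction, and a link between matches and direction was not tested. Sequences are from RefSeq (rat build GRCr8), 250 bases before to 50 after the gene's start, and run 5′ to 3′ along the gene's own strand. Capitals mark matches, on either strand, to TGGGAA (the core of the RBPJ site), CACNAG (the N box, bound by HES proteins), ATTGAT (the core of Onecut sites) and TATAAA (the TATA box). Of the 10 genes, 6 had a promoter in the table used here: Hes1, Krt8, Krt18, Tff3, Spp1 and Cftr.
Hes1 (chr11:84212996-84213295, minus strand): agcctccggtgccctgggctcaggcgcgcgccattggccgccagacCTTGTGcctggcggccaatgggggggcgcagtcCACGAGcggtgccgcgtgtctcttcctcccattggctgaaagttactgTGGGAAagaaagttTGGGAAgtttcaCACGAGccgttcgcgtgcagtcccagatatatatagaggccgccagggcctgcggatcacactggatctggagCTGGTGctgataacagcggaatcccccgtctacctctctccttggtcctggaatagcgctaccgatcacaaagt
Hes6 (chr9:99451047-99451346, minus strand): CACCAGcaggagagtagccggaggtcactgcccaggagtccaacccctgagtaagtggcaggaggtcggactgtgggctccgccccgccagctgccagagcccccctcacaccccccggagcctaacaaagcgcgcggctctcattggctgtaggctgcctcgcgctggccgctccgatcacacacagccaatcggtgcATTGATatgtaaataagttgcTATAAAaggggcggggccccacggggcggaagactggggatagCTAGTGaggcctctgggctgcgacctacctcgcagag

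The Hes1 window holds 2 RBPJ cores in the same orientation, at positions -123 to -118 and -109 to -104 from the start, and 4 N boxes, at -204 to -199, -171 to -166, -97 to -92 and -24 to -19. Of 33469 promoters of this length, 25.7% hold at least 1 RBPJ core, 3.85% hold 2 or more, and 43.1% hold an N box. The Hes6 window holds 0 RBPJ cores, 2 N boxes, 1 Onecut core and 1 TATA box. A match to AGAACA, the core of a glucocorticoid receptor site, is found in 20.7% of promoters and in neither of these windows, which says only that these letters are not in them. The window of Hes5, not printed here, also holds 2 RBPJ cores, at -242 to -237 and -98 to -93. The brighter probe set of Hes5, too dim to test (below), was lower with dexamethasone in pairs 1 and 2 and nearly unchanged in pair 3 (-0.03). It did not pass in the limma fit without the filter (-1.32 ± 0.48, adjusted p = 0.102). Matches are a description of the sequence and were not tested as sites.

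Krt8 and Krt18 encode a type II and a type I keratin that pair with each other into the filaments of simple epithelia, including both acinar and duct cells. Krt8 (1371530_at), at 8570, 9666 and 8757 in controls and 7758, 7236 and 5625 with dexamethasone, did not overlap between groups. Its fall was small, from 8998 ± 586 to 6873 ± 1112 (-0.40 ± 0.11, adjusted p = 0.0217), and pair changes of -0.14, -0.42 and -0.64 spread widely. The call was lost in 6 of 12 other settings: with 75th percentile centring (-0.28, adjusted p = 0.0908), without the filter on dim probe sets or the variance trend, without replicate 2 (-0.39) or 3 (-0.28) and without dexamethasone array 3 alone (-0.26). Krt18 (1388155_at) gave 4566, 4985 and 3735 in controls and 3379, 2673 and 1473 with dexamethasone. The groups do not overlap, and the lowest value is on dexamethasone array 3. The fall was from 4429 ± 636 to 2508 ± 963 (-0.89 ± 0.16, adjusted p = 0.0029).

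In the rat annotation Krt8 and Krt18 are neighbours with 0 protein-coding genes between them, and they are read away from each other. Their promoters are shown because both partners fell, and capitals mark the same letters as above.
Krt8 (chr7:135010290-135010589, minus strand): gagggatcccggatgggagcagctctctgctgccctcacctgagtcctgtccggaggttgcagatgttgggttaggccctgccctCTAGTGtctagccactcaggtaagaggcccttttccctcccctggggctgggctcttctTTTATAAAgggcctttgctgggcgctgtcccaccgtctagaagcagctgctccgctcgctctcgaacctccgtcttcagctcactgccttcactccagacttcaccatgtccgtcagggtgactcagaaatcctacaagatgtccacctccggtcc
Krt18 (chr7:135035918-135036217, plus strand): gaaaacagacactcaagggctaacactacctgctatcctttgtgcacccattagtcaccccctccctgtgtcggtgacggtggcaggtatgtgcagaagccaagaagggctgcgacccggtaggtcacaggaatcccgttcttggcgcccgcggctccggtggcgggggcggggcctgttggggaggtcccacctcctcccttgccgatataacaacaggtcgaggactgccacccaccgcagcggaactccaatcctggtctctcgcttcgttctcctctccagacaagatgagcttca

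The Krt8 window holds 1 N box and a TATA box at -104 to -99, a motif present in 14.2% of promoters. The same stretch matches the TATA letters on the other strand at -106 to -101. The Krt18 window holds 0 matches to any of the 5 motifs searched.

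Krt19 (1388433_at), a type I keratin and the usual duct marker, gave 2658, 3176 and 2328 in controls. With dexamethasone it gave 1388, 1423 and 316.2. The groups do not overlap, but dexamethasone array 3 stands far below the other treated arrays. The fall was from 2721 ± 427 to 1042 ± 629, or 3.16-fold (-1.66 ± 0.32, adjusted p = 0.00371), with pair changes of -0.94, -1.16 and -2.88. Its size rests partly on that array: the change was -1.05 without replicate 3 and -0.94 without dexamethasone array 3 alone in a fit without pairs, and the call held in both.

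**Figure D2:**
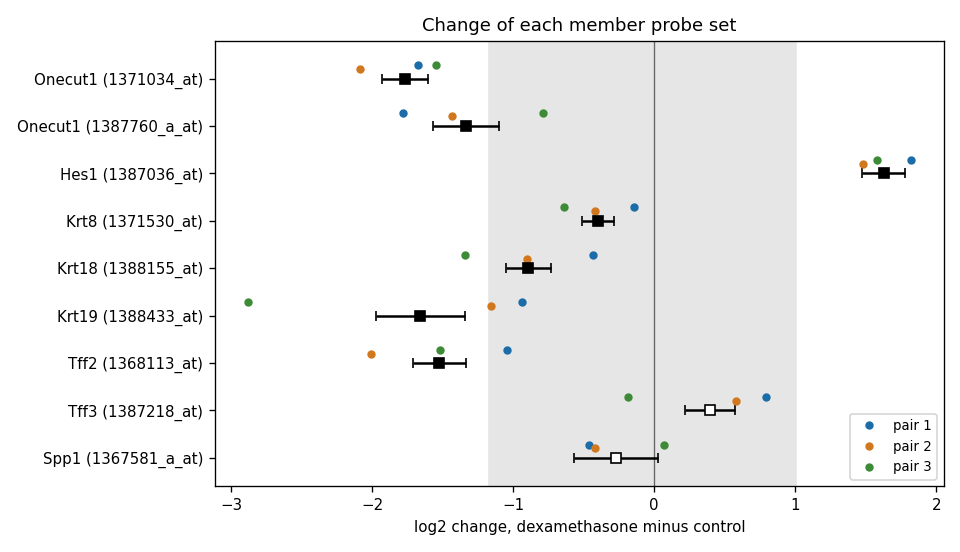
Log2 change (dexamethasone minus control) of each member probe set: squares give the limma estimate ± SE, filled where the adjusted p was below 0.05, coloured points give the change in each replicate pair, and the grey band spans the 5th to 95th percentile of all tested probe sets (-1.17 to 1.01). Both Onecut1 probe sets, Krt19, Tff2 and Hes1 lie outside the band, whereas Krt8, Krt18 and Tff3 lie inside it.

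Trefoil factors are small secreted peptides that protect mucosal surfaces. Tff2 (1368113_at) gave 1232, 1899 and 1071 in controls and 597.9, 471.8 and 373.3 with dexamethasone. The groups do not overlap, and the fall was from 1400 ± 439 to 481.0 ± 112.6, or 2.88-fold (-1.52 ± 0.19, adjusted p = 0.000322). Tff3 (1387218_at), its neighbour on the chromosome with 0 genes between them, gave 2467, 2975 and 1774 in controls and 4273, 4444 and 1559 with dexamethasone. Treated arrays 1 and 2 were above all controls and treated array 3 was below them, so the groups overlap. Tff3 did not pass (0.40 ± 0.18, adjusted p = 0.112), and by pair its changes were 0.79, 0.58 and -0.19. Without replicate 3 it passed as higher (0.69), in a fit with a poor estimate of spread. It also passed without dexamethasone array 3 alone in a limma fit without pairs (0.89, adjusted p = 0.00471). The difference between the changes of Tff2 and Tff3 was not tested. The Tff3 promoter window holds 1 Onecut core, a motif found in 8.06% of promoters, and a TATA box at -23 to -18.

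Spp1 encodes osteopontin, a secreted phosphoprotein of duct cells. Its probe set (1367581_a_at) was too dim to enter the test. Signals were 90.0, 132.5 and 98.9 in controls, all above background, and 65.4, 99.1 and 104.0 with dexamethasone, of which 1 was above background. The groups overlap, and in a fit without the filter on dim probe sets Spp1 did not pass (-0.27 ± 0.30, adjusted p = 0.588).

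Dexamethasone array 3 was set against the mean log2 signal of treated arrays 1 and 2 for each member. It was lower by 2.15 for Krt19, by 1.48 for Tff3 and by 1.03 for Krt18, outside the 5th to 95th percentile of all tested probe sets for the same difference (-0.55 to 0.64). Values for the other tested members, -0.51 for Tff2, -0.41 for Krt8, 0.18 and 0.62 for the probe sets of Onecut1, and 0.02 for Hes1, were within that range. Control array 3 was also on the low side of the other controls, at -0.32 for Krt19, -0.61 for Tff3 and -0.35 for Krt18. The range for all tested probe sets was -0.39 to 0.36, and of these 3 only Tff3 was outside it. Among the other members Tff2 was also below this range, at -0.51. Spp1, too dim to test, was higher by 0.37 on dexamethasone array 3 than the mean of treated arrays 1 and 2. Epcam, an adhesion protein of duct and other epithelia, picked here after its values were seen, gave 1041, 1130 and 418.8 on the treated arrays. Krt7, another duct keratin, gave 450.4, 526.7 and 257.1. Other genes of the keratin list were highest on treated array 3. Picked the same way, Dsp gave 1868, 1673 and 2050, and Krt5 gave 164.1, 151.4 and 243.2. The cause of the low values on these arrays was not tested.

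The rest of the Notch pathway was described with a list of 70 genes, of which 36 could be tested. Of these, 5 rose, 6 fell and 25 did not pass, or 30.6% called against 38.4% of 7051 genes over the array, 17.0% higher and 21.4% lower. Hes1 is 1 of the risers. The list's median change was -0.04, the same as that of all genes (-0.04). The split of calls depended on how arrays were scaled: 7 higher and 5 lower with 75th percentile centring, and 3 higher and 11 lower when scaled to the hybridization controls.

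Among ligands, Jag1, which presents the Notch signal to neighbouring cells, fell. It gave 864.9, 1049 and 796.9 in controls and 250, 97.1 and 292.7 with dexamethasone, without overlap and above background on every array. The fall was 4.67-fold (-2.22 ± 0.33, adjusted p = 0.000953), and -1.62 without replicate 2, whose treated array was the lowest. Jag2 did not pass (-0.57 ± 0.24, adjusted p = 0.0929), and Dll1 was at 27.2 ± 2.6 and 10.6 ± 4.9, not above background on any array. Of 4 receptors, Notch3 (0.23 ± 0.17, adjusted p = 0.329) and Notch4 (0.05 ± 0.23, adjusted p = 0.893) did not pass. Notch1 was too dim to test, at 92.8 ± 15.3 and 126.7 ± 26.8, and the probe set of Notch2 was not above background on any array.

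Among 14 tested genes of receptor processing and modification, 2 rose, 2 fell and 10 did not pass. Of all tested genes 17.0% were higher and 21.4% lower. Furin, the protease that cuts the receptor precursor, rose from 893.4 ± 20.4 to 1477 ± 31 (0.73 ± 0.12, adjusted p = 0.00191). Adam10, the sheddase that makes the ligand-dependent cut, fell from 749.7 ± 123.3 to 500.3 ± 83.7 (-0.58 ± 0.14, adjusted p = 0.0109), while for the other probe set of the gene the change was -0.45 and did not pass (SE 0.16, adjusted p = 0.0613). Psen2, a catalytic subunit of gamma-secretase, rose by 0.55 ± 0.18 (adjusted p = 0.0419), and Neurl1, a ubiquitin ligase that acts on ligands, fell by 0.58 ± 0.18 (adjusted p = 0.0320). The call of Psen2 was lost in 8 of 12 other settings: without any 1 replicate, without dexamethasone array 3 alone, without the block, with hybridization control scaling and with a looser filter or none. That of Neurl1 was lost in 7: without replicate 2 or 3, without dexamethasone array 3 alone, without the block, without the filter and with quantile normalization or 75th percentile centring.

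Of 15 tested genes of the nuclear complex, 2 rose, 2 fell and 11 did not pass, against the same 17.0% higher and 21.4% lower. Rbpj, the DNA-binding protein that Notch acts through, gave 616.0, 458.0 and 575.6 in controls and 292.6, 303.8 and 223.5 with dexamethasone. It fell 2.01-fold without overlap between groups (-1.01 ± 0.19, adjusted p = 0.00315). Hdac1, a histone deacetylase found in repressor complexes and in many others, fell from 423.7 ± 11.8 to 156.3 ± 12.1 (-1.44 ± 0.17, adjusted p = 0.000316). Kat2b, an acetyltransferase, rose by 0.77 ± 0.14 (adjusted p = 0.00288), and Tle2, a corepressor, rose by 0.55 ± 0.16 (adjusted p = 0.0295), a call lost without replicate 1 or 2, without the filter or the variance trend and with hybridization control scaling.

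In the list of targets, 3 genes were bright enough to test. Hes1 rose, Hes6 fell and Nrarp did not pass. Whether Hes6 answers to Notch in these cells was not tested. Hes6, a family member that counteracts Hes1, gave 2598, 1771 and 2674 in controls and 1251, 1187 and 958.6 with dexamethasone, a fall of 2.05-fold without overlap (-1.04 ± 0.17, adjusted p = 0.00167). Nrarp, a feedback inhibitor of Notch, went from 145.2 ± 13.6 to 183.5 ± 25.3 (0.33 ± 0.21, adjusted p = 0.251). Hes5 was too dim to test, at 206.2, 104.6 and 100.6 in controls and 37, 38 and 98.3 with dexamethasone, where no array was above background. The other Hes5 probe set was not above background on any array (0.01, adjusted p = 0.993 in the limma fit without the filter). Neurog3, which Hes1 is known to repress in progenitors, was not above background on any array.

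**Figure D3:**
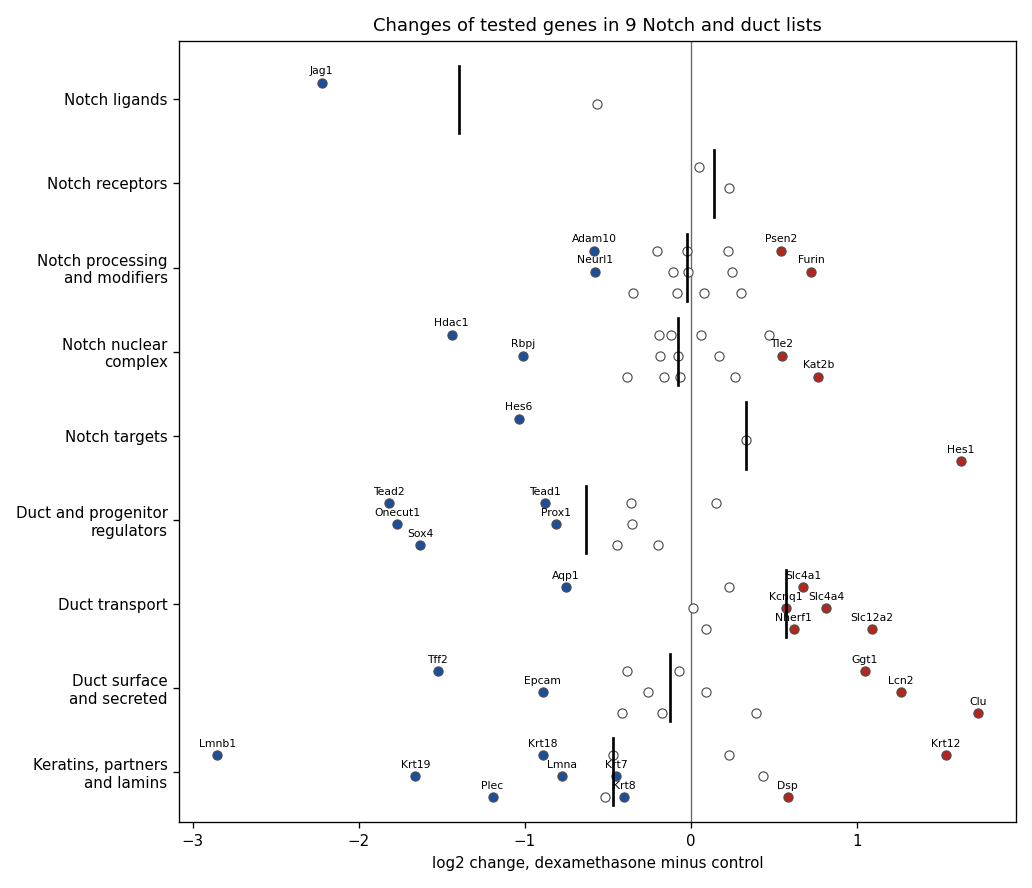
Log2 change (dexamethasone minus control) of each tested gene in 9 lists, 1 point per gene by its brightest probe set: red points passed as higher, blue as lower and open points did not pass, and black bars are list medians. Hes1 stands alone on the right of the Notch targets, Jag1 on the left of the ligands, and 5 duct and progenitor regulators are lower.

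Duct genes were described with 4 lists of 96 genes, which also hold keratins of other tissues, keratin partners and nuclear lamins. Of the 96 genes, 44 could be tested: 10 rose, 15 fell and 19 did not pass. That is 56.8% called against 38.4% over the array, and it is not a share of duct genes alone. Without the members, 20 of 38 were called, 10 in each direction. With hybridization control scaling the split over the 44 was 5 higher and 20 lower. Of 10 tested regulators of duct cells and progenitors, 5 fell and 5 did not pass, where 21.4% of all tested genes were lower. Besides Onecut1 these were Tead2, a partner of the YAP coactivator (1383 ± 397 to 391.7 ± 115.0, -1.82 ± 0.13, adjusted p = 1.81e-05), Sox4, a progenitor factor (3201 ± 329 to 1034 ± 104, -1.63 ± 0.11, adjusted p = 1.21e-05), Tead1 and Prox1. Of the other probe sets of Sox4, 1 fell (-1.62) and 1 was not called (0.21, adjusted p = 0.438), nor was the second probe set of Tead1 (-0.10, adjusted p = 0.746). The call of Prox1 (-0.81 ± 0.23) was lost without replicate 1 or 2 and without the filter. Onecut2, a close relative of Onecut1, was not called (-0.45 ± 0.17, adjusted p = 0.0651).

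Genes of ion and water transport had 5 risers, 1 faller and 3 genes that did not pass among 9 tested, where 17.0% of all tested genes were higher and 21.4% lower. Slc12a2, the sodium, potassium and chloride cotransporter, rose from 6277 ± 531 to 13387 ± 1188 (1.09 ± 0.09, adjusted p = 4.32e-05). Slc4a4, the sodium bicarbonate cotransporter of duct cells, rose by 0.81 ± 0.24 and Slc4a1, an anion exchanger best known from red cells, by 0.68 ± 0.17. The remaining rises were in Nherf1, a scaffold of membrane transporters (0.62), and Kcnq1, a potassium channel (0.57), with that of Nherf1 lost under hybridization control scaling and that of Kcnq1 also without replicate 1. The calls of Slc4a4 and Slc4a1 were lost without replicate 1 and with hybridization control scaling, that of Slc4a4 also without replicate 3, dexamethasone array 3 alone or the filter, and that of Slc4a1 also without replicate 2. Slc4a4 was tested only through its treated arrays, since all its control signals were under the filter of 147.6. The other probe sets of Slc4a4 and Nherf1 were not above background on any array. That of Slc4a1 was too dim to test and did not pass in the limma fit without the filter (0.40, adjusted p = 0.389). Aqp1, a water channel of duct cells, fell (-0.75 ± 0.21, adjusted p = 0.0234), but was not called without replicate 1 or without the filter. Its other probe set, at 368.6 ± 91.2 in controls and 45.5 ± 24.4 with dexamethasone, was too dim to test and was not above background on any treated array. In the limma fit without the filter this probe set was lower (-3.11 ± 0.43, adjusted p = 0.00275), a size limited by treated signals at background. The secretin receptor gene Sctr was too dim to test, at 91.6 ± 7.7 and 77.3 ± 80.5.

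Of 12 tested genes of surface and secreted duct proteins, 3 rose, 2 fell and 7 did not pass, against the same 17.0% higher and 21.4% lower. Clu, a secreted chaperone, rose from 500.7 ± 54.7 to 1665 ± 239 (1.73 ± 0.14, adjusted p = 2.88e-05), Lcn2, an iron carrier of inflamed epithelia, by 1.27 ± 0.30, and Ggt1, a surface enzyme of glutathione breakdown, by 1.05 ± 0.16. The control signals of Lcn2, 142.3 ± 34.0, average under the filter, so that it was tested through its treated arrays, and its call was lost without replicate 1 or 2 but not without the filter. Besides Tff2, Epcam fell (-0.89 ± 0.20, adjusted p = 0.00807), a call lost without dexamethasone array 3 in a fit without pairs (-0.44, adjusted p = 0.117) and without the block. Tff1, the remaining trefoil gene, did not pass (-0.26 ± 0.22, adjusted p = 0.397), nor did the mucin genes Muc1 (0.09 ± 0.22, adjusted p = 0.766) and Muc4 (-0.42 ± 0.23, adjusted p = 0.183).

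In the list of keratins, their partners and lamins, 7 of 13 tested genes fell, 2 rose and 4 did not pass, beside 21.4% lower and 17.0% higher over all tested genes. Krt8, Krt18 and Krt19 account for 3 of the falls. Krt7 was called lower (-0.45 ± 0.15, adjusted p = 0.0467) although its groups overlap, and the call was lost in 10 of 12 other settings, all but hybridization control scaling and the pseudocount. Plec, which links keratin filaments to the cell membrane, fell from 1180 ± 95 to 515.5 ± 39.6 (-1.19 ± 0.13, adjusted p = 0.000187). The other falls were in the nuclear lamins, with Lmnb1 going from 2349 ± 176 to 327.1 ± 51.2 (-2.85 ± 0.14, adjusted p = 2.31e-06) and Lmna at -0.77 ± 0.13. Dsp, the desmosome protein that anchors keratins, rose by 0.58 ± 0.13 (adjusted p = 0.00827), a call lost without replicate 2 and with hybridization control scaling. Krt12, best known from the cornea, rose by 1.54 ± 0.31 from signals of 133.8, 80.2 and 61.7, of which 2 were above background; all 3 are under the filter, and it was tested through its treated arrays and called without the filter too. Krt20 did not pass (-0.47 ± 0.23, adjusted p = 0.148), and Vim, a filament gene of mesenchymal cells, was not above background on any array.

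**Figure D4:**
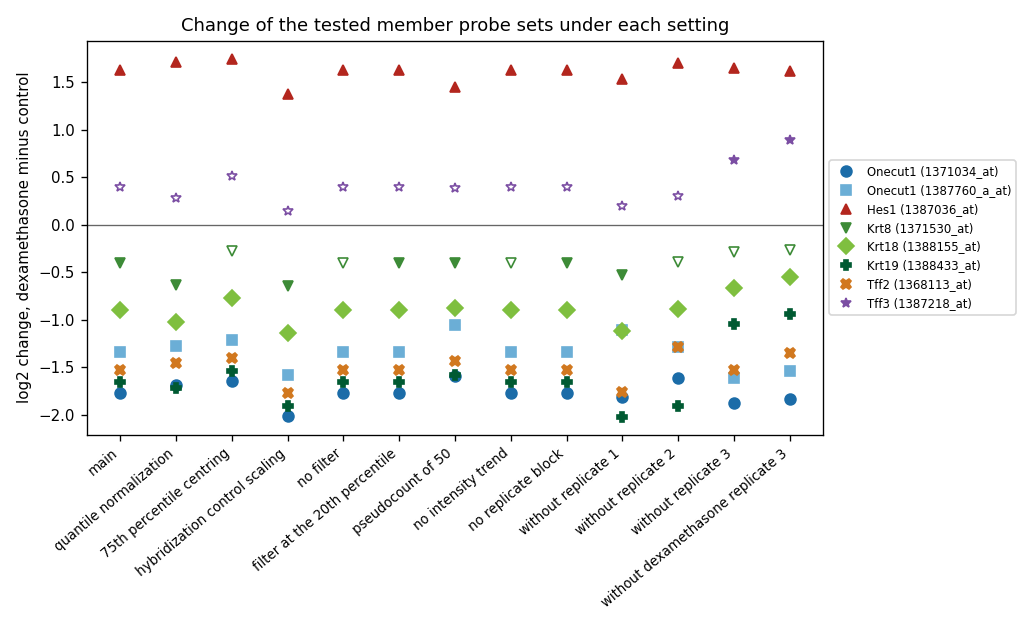
Log2 change (dexamethasone minus control) of the 8 tested member probe sets in the fit used throughout (main) and under 12 other settings; filled symbols passed an adjusted p of 0.05 and open symbols did not. No member changes sign, Krt8 loses its call in 6 of the 12 settings, and Tff3 gains one in the 2 settings without dexamethasone array 3.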

How the data were processed

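The authors deposited an intensity for each probe set, a linear MAS5 signal; the submitters' processing notes name GCOS and MAS5. For versions, scaling settings and detection calls, the sources used here give nothing. Of 15923 probe sets, 57 were array controls. Of the other 15866, 12783 carried 1 gene symbol in the platform annotation, 312 carried several and were not named, and 2771 had none; symbols were matched to the NCBI gene table of GRCr8. Before log2, the 4 signals of 0 were replaced by 0.1. Probe sets whose mean log2 signal reached the 40th percentile (a signal of 147.6) were tested, 9520 in all.

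Tests used limma 3.58.1 (R 4.3.3), with treatment and the replicate number as terms and a variance trend over signal, after checking the script on simulated data. The block follows the series' design text, which describes independent pairs. Deviations of same-numbered arrays from their group means correlated at -0.10, 0.11 and 0.21 over tested probe sets. Those of differently numbered arrays correlated at -0.25 to 0.18, so these values do not clearly set the pairs apart. Lists count 1 gene by its brightest probe set. Named genes were all member probe sets, up to 3 rises and 3 falls per list, and the 3 probe sets most like Hes1; Sox9 had none. Other list genes, among them Jag2, Nrarp, Onecut2, Tff1, Muc1, Muc4, Krt7, Krt20 and Sctr, were named to account for counts or after their values were seen. The members and lists were chosen with earlier results of these data known. MAS5 subtracts background, so dim signals are noisy, and very bright ones can saturate. Probe sets ending in _a_at can measure more than 1 transcript. Alternatives covered array scaling, the filter, a pseudocount of 50, the variance trend, the block and leaving out replicates; leaving out dexamethasone array 3 alone was added after seeing the data.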

Additional observations from a re-analysis of the deposited data

How the results depend on the processing

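Over 12 other settings none of the 8 tested member probe sets and no called list gene changed direction; Spp1 was fitted only without the filter and with a filter at the 20th percentile. Members called numbered 6 to 7 in every setting (7 in the fit reported, 7 without the block), with Hes1, both Onecut1 probe sets, Krt18, Krt19 and Tff2 called in each. Without any 1 replicate pair the members called were 6 to 7 and Notch pathway genes 8 to 10. Called genes of the duct lists numbered 19 to 23 and all called probe sets 2472 to 3014. Without the replicate block 3542 probe sets passed against 3531 with it. Without it the calls of Krt7, Neurl1, Psen2 and Epcam were lost, and no other call of a member or called list gene. Dropping the filter ended 8 calls, those of Krt8, Psen2, Neurl1, Tle2, Slc4a4, Aqp1, Prox1 and Krt7. The median change of tested probe sets was -0.05 as deposited, 0.08 with 75th percentile centring and -0.29 with scaling to the hybridization controls, and the calls split into 1512 higher and 2019 lower, 2037 and 1503, and 778 and 3257. Quantile normalization gave a median of 0.01 and 1630 higher and 1757 lower. The cause of these shifts was not tested. A fit without 1 pair keeps 4 arrays and so a poor estimate of spread. Without replicate 3 its limma adjusted p could fall far below that of all 6 arrays, as for Krt19 (5.62e-08 against 0.00371). Calls in that fit therefore carry little weight. Signals near background limit Spp1, Hes5, Notch1 and the dimmer Onecut1 probe set.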
